A study of Mus musculus with 60 samples.

Results

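Mammary glands of ovariectomized mice given estrogen and progesterone together (E+P, 5 animals) were compared with glands of mice given estrogen alone (E, 4 animals), so that the comparison reads what progesterone added to estrogen. The animals were chosen by their titles and are 9 of the 20 in the series, on 27 of its 60 arrays. Every mouse had lost its ovaries and received injections into the abdominal cavity on 4 days: 2 µg of 17-beta-estrogen for E, the same dose with 1 mg of progesterone for E+P, 1 mg of progesterone alone for P (4 animals), and 100 µl of sesame oil for the vehicle group V (4 animals). A further group (E+P CFP, 3 animals) held mammary fat pads free of epithelium from mice given both hormones. The description field names progesterone alone for the V, E+P and fat pad samples, so the groups were taken from the titles. The design text counts the fat pads as coming from 3 of the 20 animals, and the labels do not tie a pad to a gland. The labels call the samples biologic replicates and do not give the strain or age of the mice.

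Estrogen acts in the mammary gland through the estrogen receptor of luminal cells and drives duct elongation and the production of progesterone receptor. Progesterone then acts through that receptor, which is found in a subset of luminal cells, and induces side branching and alveolar budding, largely through signals that receptor-positive cells send to their neighbours. The gland is mostly fat, with ducts of luminal and basal epithelium, vessels and immune cells.

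Signal was read as linear array intensity, with 36701 probe sets that are not controls over 3 array types, of which 23067, for 12234 named genes, were bright enough to be tested. Values below a floor (13.6, 28.6 and 19.8 on array types A, B and C) were set to it, so the true difference may be larger where animals sit at the floor. The luminal keratins Krt8 and Krt18 lay between 848 and 2025 in the 9 glands and between 13.6 and 19.7 in the 3 fat pads, and the adipocyte hormone Adipoq lay between 6378 and 9159 in the 9 glands. In whole tissue, fewer cells of a type and less RNA per cell cannot be told apart. Some animals stood apart: E 1 had the highest skeletal muscle score of the intact glands (1.54, on a log2 scale relative to the mean of the 20 animals), and E 2 the highest mast cell and granulocyte score (2.23).

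Adding progesterone changed 33 probe sets, 17 higher and 16 lower, for 32 genes (limma, Benjamini-Hochberg adjusted p below 0.05). They are 0.143% of the probe sets tested (0.0737% higher and 0.0694% lower), and 22 of them differed by 2-fold or more. With each gene read by 1 probe set, 28 of 12234 genes passed (0.229%). That is the share to set beside the counts in the gene lists below. An unadjusted p below 0.05 was reached by 2290 probe sets (9.93%), 1293 of them higher (5.61%) and 997 lower (4.32%). The median difference over all tested probe sets was 0.01 on the log2 scale. The 5 E+P animals and the 4 E animals did not overlap in any of the 33 probe sets; over all tested probe sets such separation was seen in 2.48% upward and 1.84% downward. The largest fall was that of the serotonin enzyme Tph1 and the largest rise that of the thermogenic protein Ucp1.

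**Figure D1:**
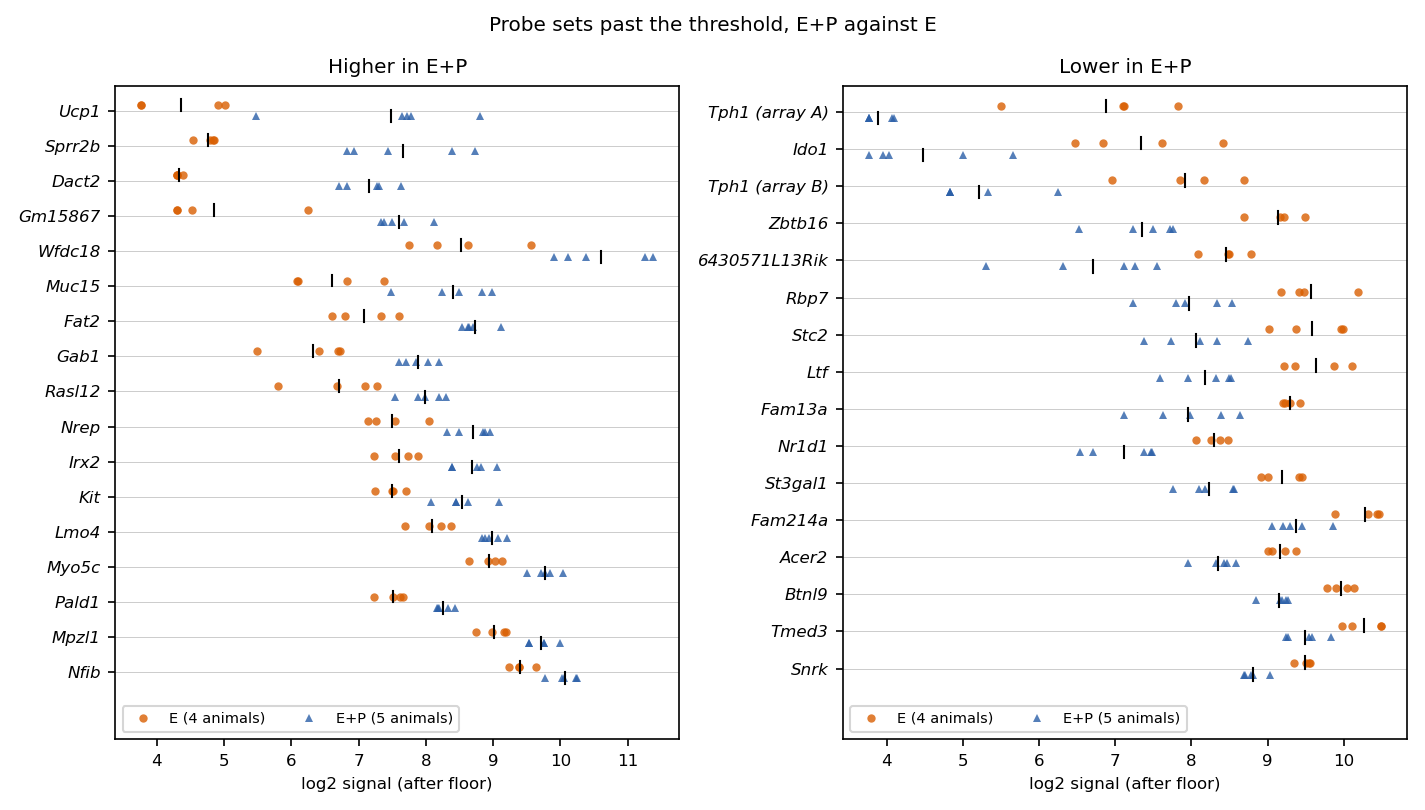
Signal of the 33 probe sets that passed the threshold, on a log2 axis, in each of the 4 E animals (circles) and 5 E+P animals (triangles), with the group mean as a vertical bar. The E and E+P animals do not overlap in any of the 33; Ucp1 has the largest rise (3.12) and Tph1 the largest fall (-2.99).

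Tph1 and Ido1, enzymes that each open a route of tryptophan use, fell. On array type A both exceeded the level asked for (61.6) in E animals alone. High E values were thus a condition for these probe sets to be tested at all. Tph1 makes the serotonin precursor from tryptophan in cells outside the brain, and serotonin is a local signal in the mammary gland. Its signal was 227, 45.2, 138 and 138 in the 4 E animals and 16.8, 13.6, 17.1, 13.6 and 13.6 in the 5 E+P animals, 3 of which were at the floor. The groups were far apart, and E+P was at the level of V, where all 4 animals were at the floor. The log2 difference was -2.99 ± 0.52 (SE), a fall of 7.96-fold or more with an adjusted p of 0.0173. The other Tph1 probe set, on array type B, read 411, 124, 287 and 231 in E and 40.2, 28.6, 75.7, 28.6 and 28.6 in E+P, a log2 difference of -2.70 ± 0.51 (adjusted p = 0.0264). On leaving out each of the 9 animals in turn, the largest adjusted p of the Tph1 probe sets was 0.0998 and 0.118, both without E 1; for the genes that follow, a p given without an animal is likewise the largest of the 9.

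Tph1 is also made by mast cells. Of 8 tested mast cell and granulocyte genes 3 lay above 0 and 5 below, with a median of -0.52 on the log2 scale, and their score ran from -0.33 to 0.01 in E+P and from -0.19 to 2.23 in E. The mast cell genes Tpsb2, Cma1 and Ms4a2 differed by 0.25, 0.29 and -0.21 (adjusted p from 0.727 to 0.891), and Kit, on the same list, rose. The granulocyte genes Elane, S100a8, S100a9 and Camp differed by -0.84, -2.02, -2.79 and -1.45, the first 3 with an unadjusted p below 0.05. None of these markers was at the floor in all animals of a group, and their part in the fall of Tph1 was not tested.

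Ido1, a first enzyme of the kynurenine route, read 196, 88.6, 115 and 340 in E and 15.5, 16.4, 50.6, 13.6 and 32.0 in E+P. The highest E+P animal was below the lowest E animal. The log2 difference was -2.85 ± 0.49, a fall of 7.21-fold with 1 E+P animal at the floor (adjusted p = 0.0173; 0.0718 without E 1). A second Ido1 probe set differed by -0.98 (adjusted p = 0.492). Of the 16 tested genes of amino acid and polyamine enzymes, Tph1 and Ido1 were the members past the threshold, where 0.229% of all tested genes passed. The arginase Arg2 (-0.77, adjusted p = 0.350) and the one-carbon enzyme Shmt1 (0.67, adjusted p = 0.328) were not, and the median of the list was -0.06.

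Zbtb16, a zinc finger transcription factor known as a target of steroid receptors, was lower where progesterone was added to estrogen. It read 570, 597, 412 and 719 in E and 92.1, 217, 151, 210 and 180 in E+P. The E+P animals overlapped V, which read 81.0 to 195. The fall was 3.46-fold (log2 difference -1.79 ± 0.35, adjusted p = 0.0372; 0.129 without E 2), and a second probe set gave -0.96 ± 0.26 (adjusted p = 0.179). Fkbp5, a co-chaperone of steroid receptors and a common target of them, read 619, 812, 398 and 396 in E and 169, 339, 154, 186 and 275 in E+P. Its groups did not overlap either, but the difference of -1.31 ± 0.29 had an adjusted p of 0.0934.

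Of 14 tested progesterone receptor targets, Zbtb16 was the member past the threshold, where 0.229% of all tested genes passed. Upward differed 5 members and downward 9, with a median of -0.19 on the log2 scale against 0.02 over all tested genes. Gjb2, a gap junction protein, read 69.0, 29.4, 63.6 and 45.0 in E and 99.5, 382, 120, 79.1 and 307 in E+P, higher in each E+P animal, with a log2 difference of 1.72 ± 0.48 (adjusted p = 0.221). Id4, a helix-loop-helix inhibitor of basal cells, differed by 0.62 ± 0.22 (adjusted p = 0.321), the cyclin Ccnd1 by 0.48 ± 0.20 (adjusted p = 0.405), the alveolar factor Elf5 by 0.43 ± 0.20 (adjusted p = 0.478) and the ligand Wnt4 by -0.38 ± 0.24 (adjusted p = 0.647). None of these 4 passed the threshold.

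Of 17 tested estrogen receptor targets, 2 fell, where 0.229% of all tested genes passed in either direction. Above 0 lay 9 of the 17 and below it 8, with a median of 0.01. An unadjusted p below 0.05 was reached by 3 upward and 4 downward, where 6.16% and 4.43% of all tested genes did so. Stc2, a secreted stanniocalcin that estrogen induces in breast cancer cells, read 998, 520, 664 and 1012 in E and 323, 212, 277, 428 and 167 in E+P. The E+P values overlapped those of V (224 to 486), and the fall was 2.88-fold (log2 difference -1.53 ± 0.30, adjusted p = 0.0392; 0.128 without E 1). A second, dimmer Stc2 probe set differed by 1.07 ± 0.51 in the other direction (adjusted p = 0.493). Ltf, the iron-binding milk protein lactoferrin, read 594, 1099, 937 and 657 in E and 361, 192, 320, 366 and 248 in E+P. Its fall was 2.76-fold (log2 difference -1.46 ± 0.24, adjusted p = 0.0165; 0.0735 without E 2), and E+P lay below V, where it read 632 to 1111. In fat pads Ltf read 13.6, 27.2 and 19.6. The transcription factors Tfap2c (1.05 ± 0.27, adjusted p = 0.179) and Myb (-0.97 ± 0.26, adjusted p = 0.188) had groups without overlap in opposite directions and did not pass. Of the 17, 2 separated upward and 3 downward, where 2.48% and 1.84% of all tested probe sets did so.

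Rbp7, a retinol-binding protein of adipose endothelium, had the smallest adjusted p of the comparison. It read 1168, 580, 710 and 680 in E and 370, 222, 324, 241 and 150 in E+P. All 5 E+P animals were below every other animal of the series, since V read 1075 to 1456, P 634 to 867 and the fat pads 422 to 635. The fall was 3.03-fold (log2 difference -1.60 ± 0.22, adjusted p = 0.00622). The other 20 tested endothelial genes did not pass, among them Robo4 (-0.49), Sox18 (-0.41) and Tie1 (0.53), and the median over the 21 was -0.04. The endothelial score ran from -0.52 to -0.06 in E+P and from -0.26 to -0.07 in E.

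Nr1d1, the clock repressor also called Rev-erb alpha, read 355, 266, 307 and 331 in E and 105, 93.0, 177, 178 and 167 in E+P. The fall was 2.26-fold (log2 difference -1.18 ± 0.21, adjusted p = 0.0225; 0.0939 without E 1). The other 17 tested clock genes did not pass the threshold: the output gene Dbp differed by -0.43, its relative Hlf by 0.49 and Cry1 by 0.58, and the list median was -0.08. Collection times are not in the labels.

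The 8 other genes that fell were 6430571L13Rik (log2 difference -1.75 ± 0.34, adjusted p = 0.0325), Fam13a, the sialyltransferase St3gal1, Fam214a, the Golgi ceramidase Acer2, the butyrophilin-like membrane protein Btnl9, the vesicle transport protein Tmed3 and the kinase Snrk. Snrk had the smallest fall, 1.61-fold, with little spread: it read 754, 748, 652 and 725 in E and 413, 417, 523, 448 and 438 in E+P (-0.69 ± 0.10, adjusted p = 0.00979). Btnl9 read 1124, 877, 1054 and 950 in E and 584, 462, 574, 607 and 618 in E+P (-0.82 ± 0.15, adjusted p = 0.0197). Neither Snrk nor Btnl9 was low in fat pads: the 3 pads read 706 to 773 for Snrk and 1004 to 1113 for Btnl9, above all 5 E+P glands. Fam13a read 591 to 690 in E and 138 to 399 in E+P, a fall of 2.53-fold (adjusted p = 0.0325). A second Fam13a probe set differed by -0.88 (adjusted p = 0.0598). Tmed3 read 1430, 1010, 1100 and 1440 in E and 743, 619, 909, 763 and 607 in E+P (-0.77 ± 0.13, adjusted p = 0.0173), and its fat pad values were 375 to 478. A bright second Snrk probe set differed by -0.52 (adjusted p = 0.216), and dim probe sets of Snrk and 6430571L13Rik differed upward by 1.05 and 0.30 (adjusted p = 0.540 and 0.888). Second probe sets of Btnl9 and St3gal1 differed by only -0.23 and -0.34 (adjusted p = 0.919 and 0.555).

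Promoters of 26 of the 32 genes were found in the RefSeq table (14 that rose and 12 that fell) and were searched for steroid receptor motifs in the 250 bases before each start, on both strands. The letters AGAACA, the short core bound by progesterone and glucocorticoid receptors, were found in 11.2% of the promoters of tested genes and in 16% of all 32536 promoters. Of the genes that rose 0 of 14 held them, and of the genes that fell 2 of 12 did, Btnl9 and the most downstream of 3 Fam214a promoters. A gene counted if any of its promoters held a match, while the shares count single promoters, so the 2 are not like for like. The palindromic steroid response element (GNACA and TGTNC with any 3 bases between them), present in 0.25% of the promoters of tested genes, and the palindromic estrogen response element (GGTCA and TGACC with any 3 bases between them), present in 0 of those promoters and in 0.0645% of all, were in none of the 26 genes. A match describes the letters of this window and is not a binding site. The matching promoters are shown with the core in capitals, where it reads TGTTCT because it lies on the other strand, beside that of Wfdc18, the milk protein gene with the largest rise, which holds no match (build GRCm38.p6; Fam214a chr9:74975861-74976110 and Wfdc18 chr11:83708754-83709003 on the plus strand, Btnl9 chr11:49187090-49187339 on the minus strand).
Btnl9: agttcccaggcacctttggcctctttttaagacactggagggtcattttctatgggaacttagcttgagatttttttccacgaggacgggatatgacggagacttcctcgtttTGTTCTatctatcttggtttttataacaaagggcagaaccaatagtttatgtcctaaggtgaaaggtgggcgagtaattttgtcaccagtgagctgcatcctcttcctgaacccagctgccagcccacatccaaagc
Fam214a: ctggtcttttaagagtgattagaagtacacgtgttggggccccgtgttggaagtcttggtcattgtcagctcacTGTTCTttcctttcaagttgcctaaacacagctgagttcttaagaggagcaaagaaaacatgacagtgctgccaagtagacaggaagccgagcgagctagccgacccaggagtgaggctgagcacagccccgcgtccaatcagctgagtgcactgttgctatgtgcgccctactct
Wfdc18: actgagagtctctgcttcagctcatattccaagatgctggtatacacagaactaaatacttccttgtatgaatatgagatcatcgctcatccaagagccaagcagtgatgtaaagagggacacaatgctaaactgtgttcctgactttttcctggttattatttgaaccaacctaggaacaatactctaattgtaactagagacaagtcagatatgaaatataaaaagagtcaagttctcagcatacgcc

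Wfdc18, Muc15 and Sprr2b rose. Wfdc18, a small secreted protein of the whey acidic protein family, read 395, 215, 288 and 754 in E and 1104, 2673, 961, 1336 and 2446 in E+P. All 5 E+P animals were above every animal of the other groups, whose highest value was 754, and the fat pads read 49.2 to 54.9. The rise was 4.23-fold (log2 difference 2.08 ± 0.33, adjusted p = 0.0106; 0.0516 without E 2). Muc15, a membrane mucin of the milk fat globule, read 68.1, 68.8, 114 and 166 in E and 359, 505, 302, 180 and 457 in E+P, and was at the floor in the 3 fat pads (1.81 ± 0.37, adjusted p = 0.0470; 0.231 without E 2). Sprr2b, a small proline-rich protein of stratified and stressed epithelia, read 28.9, 27.8, 23.3 and 28.6 in E and 174, 423, 114, 122 and 334 in E+P, a rise of 7.48-fold (2.90 ± 0.47, adjusted p = 0.0106). The fat pads, which hold no epithelium, read 34.1, 20.2 and 76.8. Its probe set carries the suffix for probes shared within a gene family, so near-identical Sprr2 genes may contribute.

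Of 18 tested milk and secretory protein genes, Wfdc18 and Muc15 rose and Ltf fell, where 0.229% of all tested genes passed in either direction. In this list 7 members lay above 0 and 11 below, with a median of -0.20. The casein Csn3 read 1121, 721, 928 and 1320 in E and 849, 434, 1533, 479 and 340 in E+P, overlapping widely (-0.68 ± 0.42, adjusted p = 0.640). The mucin Muc1 differed by 0.64 ± 0.19 (adjusted p = 0.239). Among 14 tested protease inhibitors of secretions, Wfdc18 was again the member that passed, and Serpinb11 (1.20 ± 0.42), Spint1 (0.92 ± 0.29) and Serpinb5 (0.91 ± 0.29) did not (adjusted p from 0.258 to 0.310).

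Kit, Gab1 and Lmo4 rose. Kit, the receptor for stem cell factor and a marker of luminal progenitors, read 208, 151, 183 and 182 in E and 271, 350, 394, 349 and 545 in E+P. The rise was 2.07-fold (log2 difference 1.05 ± 0.18, adjusted p = 0.0173; 0.0795 without E 2), and the fat pads read 81.9 to 91.0. Kit marks mast cells too, and is itself 1 of the 8 mast cell and granulocyte genes described beside Tph1; their part in its rise was not tested. Gab1, an adaptor that carries signals from growth factor receptors, read 104, 45.0, 85.0 and 105 in E and 194, 293, 231, 209 and 262 in E+P, above all animals of the other groups (1.55 ± 0.24, a rise of 2.93-fold, adjusted p = 0.00979). Lmo4, a LIM domain co-regulator needed for alveolar growth, read 266, 207, 332 and 301 in E and 489, 589, 538, 469 and 455 in E+P (0.89 ± 0.14, adjusted p = 0.00979). E+P lay above all V, P and fat pad animals for Lmo4 as well, the highest of which read 433, and the fat pads, at 363 to 371, lay above all 4 E animals.

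Irx2, a homeobox factor, read 213, 151, 186 and 235 in E and 336, 433, 453, 336 and 531 in E+P, and 28.6, the floor, in all 3 fat pads (1.09 ± 0.20, adjusted p = 0.0197; 0.115 without E 2). The nuclear factor Nfib rose 1.58-fold (0.66 ± 0.13, adjusted p = 0.0474), and its fat pads read 648 to 697, within the E range of 601 to 794. Of its 6 other tested probe sets 5 differed upward by 0.28 to 0.67 and 1 by -0.28, with none past the threshold. Dact2, a modulator of Wnt and TGF-beta signalling, was at the floor of 19.8 in 3 E animals and read 21.0 in the other, against 114, 197, 154, 105 and 158 in E+P. The groups were far apart, with a rise of 7.07-fold or more (2.82 ± 0.46, adjusted p = 0.0106). A second, brighter Dact2 probe set, with a mean log2 signal of 8.97 in E and 8.70 in E+P, differed by -0.27 (adjusted p = 0.572). The rise was thus seen in the dimmer of the 2 probe sets only. The giant protocadherin Fat2 read 96.9, 195, 161 and 112 in E and 396, 554, 401, 416 and 371 in E+P (1.64 ± 0.34, adjusted p = 0.0474; 0.141 without E+P 2), and 72.1 to 232 in the fat pads.

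The other 6 genes that rose, apart from Ucp1, were Gm15867 (2.75 ± 0.51, 2 E animals at the floor, adjusted p = 0.0197), the small GTPase relative Rasl12 (1.27 ± 0.25, adjusted p = 0.0325), the growth-associated protein Nrep (1.20 ± 0.21, adjusted p = 0.0173), the secretory epithelium myosin Myo5c (0.84 ± 0.17, adjusted p = 0.0476), the phosphatase-domain protein Pald1 (0.75 ± 0.12, adjusted p = 0.0106) and the cell surface protein Mpzl1 (0.70 ± 0.13, adjusted p = 0.0292). Myo5c and Mpzl1 were lower in all 3 fat pads than in any gland of the 9. Rasl12 was not: it read 248 to 344 in the fat pads, 187 to 315 in E+P and 56.1 to 154 in E.

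Ucp1, the uncoupling protein by which brown and beige adipocytes make heat, read 30.2, 13.6, 32.3 and 13.6 in E and 219, 211, 201, 446 and 44.7 in E+P. Its highest E animal was below its lowest E+P animal. V read 170 to 279, within the span of E+P, and the 3 fat pads given both hormones were at the floor. The rise against E was 8.70-fold or more, since 2 E animals were at the floor (3.12 ± 0.48, adjusted p = 0.00979), and a second probe set on array type C gave 1.45 ± 0.36 (adjusted p = 0.138). All 5 tested brown adipocyte genes of 11 listed differed upward, where 52.6% of all tested genes did, with a median of 0.83, the value of Dio2. Ucp1 was the member past the threshold, where 0.229% of all tested genes passed. Cox7a1, a muscle and brown fat subunit of cytochrome oxidase, read 39.8, 27.6, 34.2 and 28.0 in E and 90.4, 61.4, 77.0, 87.5 and 46.2 in E+P (1.14 ± 0.30, adjusted p = 0.179). The thyroid hormone activating enzyme Dio2 also separated the groups (0.83 ± 0.22, adjusted p = 0.179), and the lipid droplet protein Cidea did not (0.46 ± 0.25, adjusted p = 0.566). Dio2 exceeded the level asked for (61.6) in E+P animals alone. High E+P values were thus a condition for Dio2 to be tested at all, and its separation adds no support. White adipocyte genes had a median of -0.12, with 0 of 21 past the threshold.

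**Figure D2:**
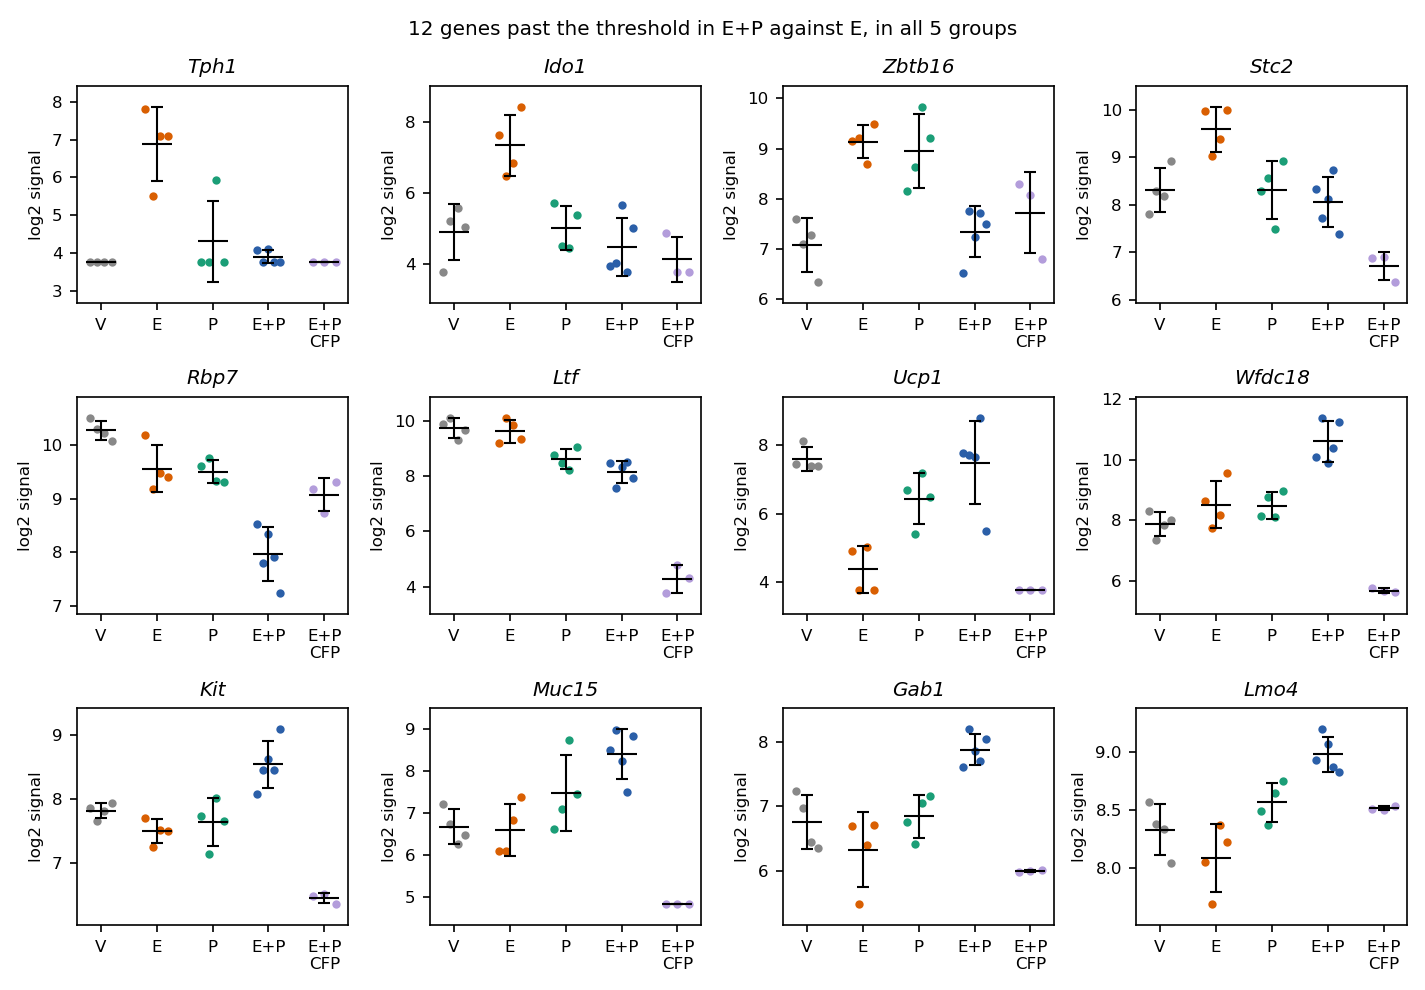
Log2 signal of 12 genes past the threshold in each animal of the 5 groups, with the group mean and SD as black bars. The mean of Tph1 and of Ido1 is highest in E, Rbp7 is lowest in E+P, Ucp1 is low in E and in the fat pads, and Wfdc18, Gab1 and Lmo4 are highest in E+P.

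The same hormone without estrogen gives a comparison over other animals, P against V. It had 0 probe sets past the threshold (limma, smallest adjusted p 0.0649), against 1861 with an unadjusted p below 0.05 (8.07%). Of the 17 probe sets that rose in E+P against E, 9 had a positive P minus V difference, and of the 16 that fell, 6 had a negative one. Ltf (-1.12 ± 0.26) and Rbp7 (-0.77 ± 0.23) differed in the same direction without estrogen, with adjusted p of 0.231 and 0.410. Wfdc18 differed by 0.60 ± 0.35 without estrogen, Gab1 by 0.09 ± 0.25 and Kit by -0.18 ± 0.19 (adjusted p from 0.698 to 0.954).

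The interaction asks whether the effect of progesterone with estrogen differed from that without it. It passed the threshold for 17 probe sets (0.0737% of those tested), 8 positive (0.0347%) and 9 negative (0.039%), and 6 of these are among the 33. Zbtb16 had an interaction of -3.66 ± 0.50 on the log2 scale (adjusted p = 0.00994): progesterone went with a difference of 1.87 ± 0.37 without estrogen and of -1.79 with it. Zbtb16 read 195, 137, 156 and 81.0 in V and 283, 394, 909 and 596 in P. Its second probe set had an interaction of -2.37 (adjusted p = 0.0122). Fam13a (-2.36, adjusted p = 0.0122) and 6430571L13Rik (-2.71, adjusted p = 0.0280) had the same shape, as did an unnamed probe set with an interaction of -2.95 (adjusted p = 0.00994) that fell just short in E+P against E (-1.45, adjusted p = 0.0526). Fkbp5, with 0.83 without and -1.31 with estrogen, had an interaction of -2.14 ± 0.42 (adjusted p = 0.0576).

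In the other direction, Ucp1 had an interaction of 4.28 ± 0.69 (adjusted p = 0.0132), Gm15867 of 4.44 ± 0.74 (adjusted p = 0.0122) and Sprr2b of 3.67 ± 0.68 (adjusted p = 0.0369). Without estrogen these 3 differed by -1.16, -1.69 and -0.76. Elf3, an epithelial transcription factor, read 45.5, 45.1, 80.3 and 177 in E and 183 to 207 in E+P, but 93.7 to 205 in V and 29.0 to 85.7 in P, an interaction of 3.21 ± 0.53 (adjusted p = 0.0138). A second, brighter Elf3 probe set gave -0.26 for E+P against E and an interaction of -0.20 (adjusted p = 0.843). The zinc transporter Slc30a2 was at the floor in all 4 E animals and read 61.6, 73.7, 54.0, 19.8 and 72.4 in E+P (1.37 for E+P against E, adjusted p = 0.236). It read 57.7 to 148 in V and 19.8 to 20.3, at or near the floor, in P (interaction 3.35 ± 0.59, adjusted p = 0.0184). The Golgi stacking protein Gorasp2 (2.94, adjusted p = 0.0122) and the kinase Mast2 (1.65, adjusted p = 0.0280) were also positive. The potassium channel Kcnk12 (-3.94, adjusted p = 0.0280), Zbtb20 (-2.51, adjusted p = 0.0138), Syde2 (-1.75, adjusted p = 0.0280) and Eif4e3 (-1.35, adjusted p = 0.0419) were negative. Other tested probe sets of Gorasp2 had interactions from -0.33 to 0.41, and those of Zbtb20 from -0.70 to 0.28. Second probe sets of Mast2, Syde2 and Eif4e3 gave 0.94, -1.11 and -0.17. Those of Fam13a, 6430571L13Rik and Ucp1 gave -1.08, -0.18 and 2.51. None of these other probe sets passed the threshold. A probe set with no gene name completes the list (4.29, adjusted p = 0.0122). The count of 17 went to 10 without V 2, 27 without E 1, 45 without P 4 and 48 without V 4.

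**Figure D3:**
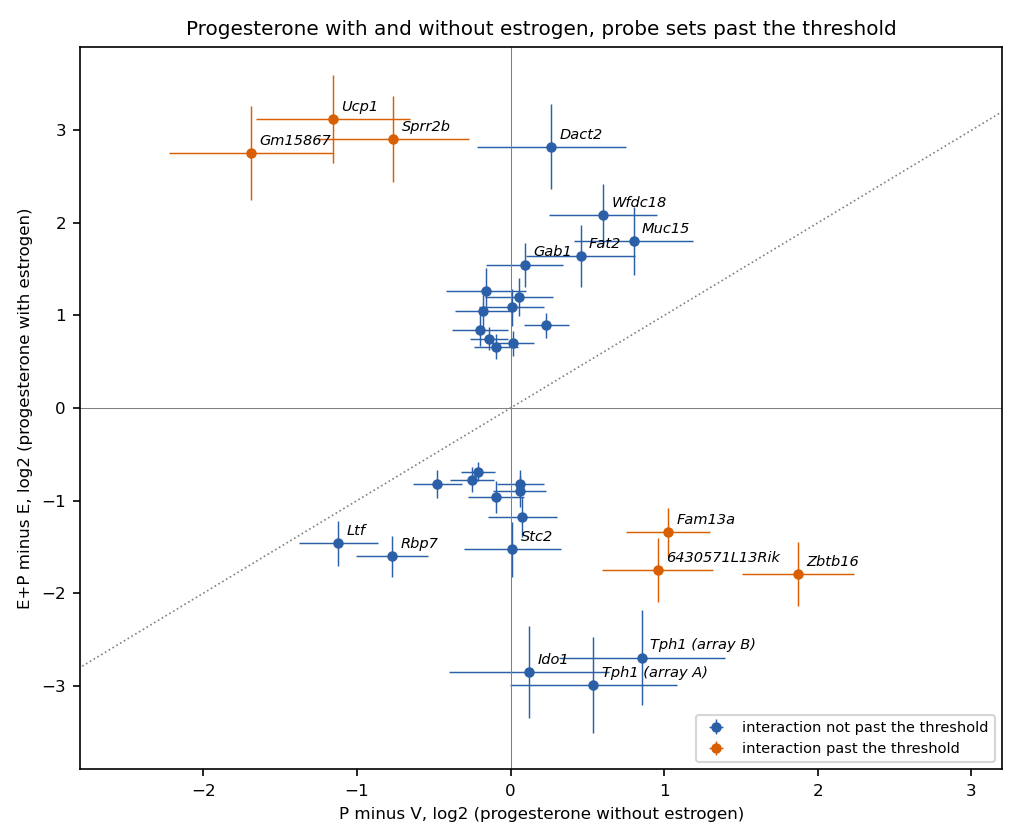
Log2 difference of the 33 probe sets with estrogen present (E+P minus E, vertical) and absent (P minus V, horizontal), with standard errors; equal effects would lie on the dotted line. Ucp1, Sprr2b and Gm15867 (orange) are higher with and lower without estrogen, Zbtb16, Fam13a and 6430571L13Rik (orange) the reverse, and the other probe sets (blue) did not pass the interaction test.

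E+P and E share their animals with the comparisons against V, so the levels are only set side by side. Against V, estrogen alone differed by 3.12 for Tph1, 2.44 for Ido1, 2.06 for Zbtb16, 1.28 for Stc2 and -3.23 for Ucp1, and the 2 hormones together by 0.13, -0.41, 0.26, -0.24 and -0.11. For Rbp7 these values were -0.71 and -2.31, for Wfdc18 0.64 and 2.72, for Gab1 -0.43 and 1.12, and for Lmo4 -0.25 and 0.65. Of the E+P minus V values in these 2 sets, those of Rbp7, Wfdc18, Gab1 and Lmo4 passed the threshold (limma adjusted p from 1.06e-05 to 0.0365).

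Genes of cell division differed mostly upward in E+P without passing the test. Of 30 tested mitosis genes 29 differed upward, where 52.6% of all tested genes did, with a median of 0.50 against 0.02 over all genes tested, 8 reached an unadjusted p below 0.05 (6.16% of all genes did so upward), and 0 passed the adjusted threshold. Ndc80, a kinetochore protein, was the member whose groups did not overlap (1.80 ± 0.49, 2 E animals at the floor, adjusted p = 0.192). Upward separation was seen in 2.48% of all tested probe sets, so 1 of 30 members is near that share. The microtubule regulator Stmn1 (1.04 ± 0.29) and the kinesin Kif22 (0.98 ± 0.29) followed with adjusted p of 0.222 and 0.243. The proliferation marker Mki67 read 92.0, 190, 97.1 and 129 in E and 186, 410, 231, 102 and 130 in E+P, overlapping (0.63 ± 0.39, adjusted p = 0.642). E+P 2 had the highest mitosis score (1.51) and the other E+P animals 0.35 to 0.91, against -0.19 to 0.63 in E. Of 29 DNA replication genes 24 differed upward, with a median of 0.27 and 0 past the threshold, thymidine kinase Tk1 having the largest difference (1.40 ± 0.51, adjusted p = 0.335).

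Of 28 tested luminal genes 20 differed upward, with a median of 0.36, and Kit rose. An unadjusted p below 0.05 was reached by 13 upward and 2 downward, where 6.16% and 4.43% of all tested genes did so. With the brightest probe set of each gene in place of the preferred array type the median was 0.13. The transcription factors Ehf (1.41 ± 0.32, adjusted p = 0.0957), Elf3 (1.40, adjusted p = 0.179) and Grhl2 (0.89, adjusted p = 0.222), the splicing regulator Esrp1 (0.88, adjusted p = 0.188) and the transport protein Mal2 (1.14 ± 0.26, adjusted p = 0.0941) had groups without overlap. Such separation was seen upward in 7 of the 28 luminal genes and downward in 1. Over all tested probe sets the shares were 2.48% and 1.84%. Of the keratins, Krt8 differed by -0.04 ± 0.19, Krt18 by 0.11 ± 0.17 and Krt19 by -0.34 ± 0.20 (adjusted p from 0.616 to 0.972). Of 21 junction genes 19 differed upward with a median of 0.33 and 0 past the threshold. Of 15 basal genes 11 did, with a median of 0.27, 0 past the threshold and the glial and basal factor Sox10 foremost (0.69 ± 0.17, adjusted p = 0.138).

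Of 27 tested genes of lymphocytes and plasma cells, 26 differed downward with a median of -1.43, 18 reached an unadjusted p below 0.05 (4.43% of all genes did so downward) and 0 passed the threshold. The B cell receptor chains Cd79a and Cd79b differed by -1.40 ± 0.60 and -1.82 ± 0.73, the T cell receptor chain Cd3e by -2.06 ± 0.83, the plasma cell gene Jchain by -1.64 ± 0.58, and Glycam1, which lymph node venules and lactating epithelium make, by -3.63 ± 1.52 (adjusted p from 0.326 to 0.424). The score of the list was high in 2 E+P animals (0.76 in E+P 2 and 0.70 in E+P 4), within the E range of 0.47 to 1.70, and low in the other 3 (-1.11 to -1.39). Lymph nodes were removed at collection, per the design text, and the part of remaining node tissue in these values was not tested.

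The granulocyte genes S100a8 and S100a9 rested on 1 animal: E 2 read 6865 and 4073, the other 3 E animals 40.4 to 203 and 33.8 to 134, and E+P 40.5 to 89.4 and 13.6 to 34.9. Macrophage genes had a median of -0.05 with 0 of 17 past the threshold. Genes of protein folding in the endoplasmic reticulum differed downward in 19 of 25, with a median of -0.23, 0 past the threshold and Herpud1 (-0.54 ± 0.16, adjusted p = 0.239) and the chaperone Hspa5 (-0.40 ± 0.13, adjusted p = 0.291) foremost. Extracellular matrix genes differed upward in 24 of 27 with a median of 0.21 and 0 past the threshold. Skeletal muscle genes differed downward in 18 of 22, with a median of -0.31, where E 1 had the highest score of the 9 glands.

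**Figure D4:**
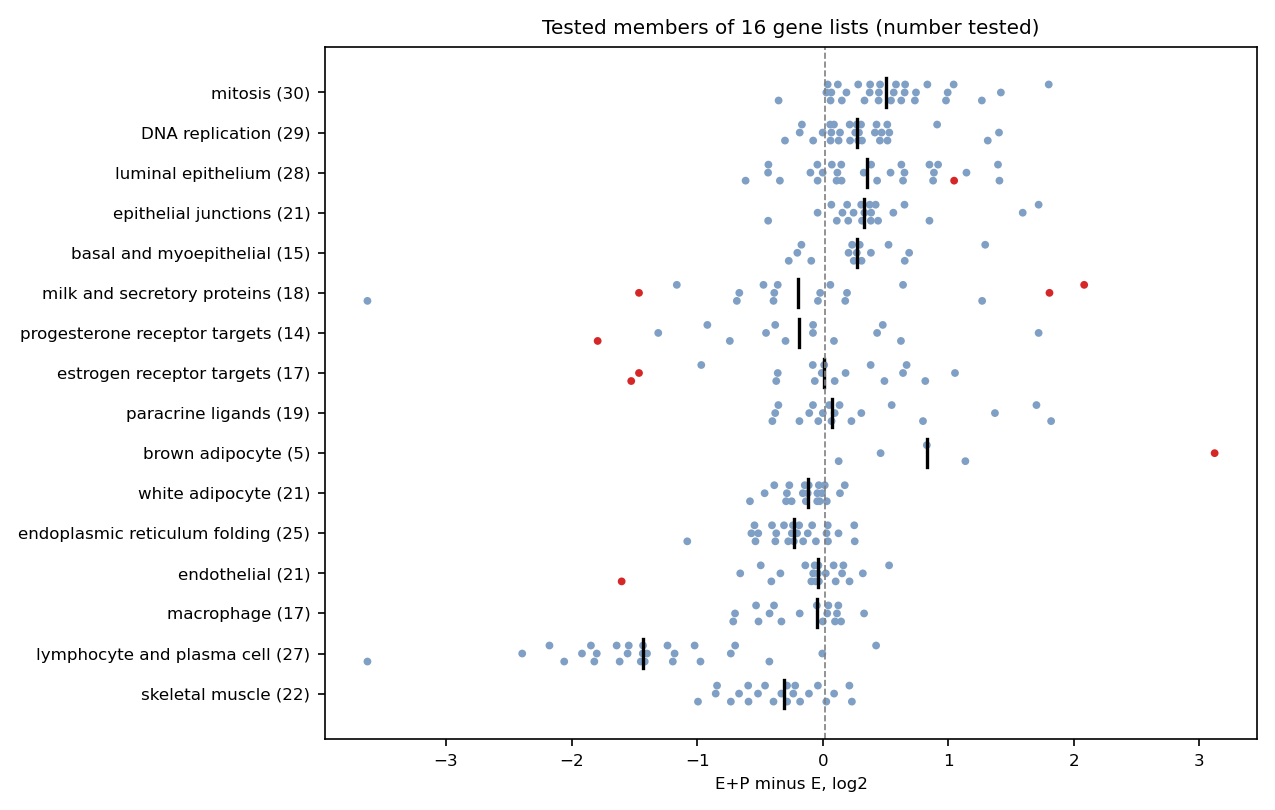
Log2 difference of E+P minus E for each tested member of 16 gene lists (points, red where past the threshold), the list median (black bar) and the median of all tested genes (dashed line, 0.02). The mitosis median is 0.50 and the lymphocyte and plasma cell median -1.43, with 0 members past the threshold in either list.

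Of 19 tested paracrine ligands, 12 differed upward and 0 passed. Wnt5b (1.82 ± 0.40, adjusted p = 0.0934) and Tgfb3 (0.55 ± 0.15, adjusted p = 0.197) had groups without overlap, as did 1 other member, downward. Such separation was seen in 2.48% of all tested probe sets upward and in 1.84% downward. The insulin-like growth factor Igf1 differed by 0.05 ± 0.13 and the hedgehog ligand Ihh by -0.08 ± 0.20. Of the best known mediators of progesterone in this tissue, Tnfsf11 (RANKL) and the progesterone receptor gene Pgr were too dim to be tested: before the floor was set, Tnfsf11 read 21.0 to 38.1 in E and 2.40 to 58.6 in E+P, and Pgr 3.40 to 26.5 and 8.80 to 37.0, under the level of 61.6 asked for on that array type. Csn2, Wap, Krt5 and Krt14 were likewise too dim, and Areg, Calca and Prlr were not analysed here. The estrogen receptor gene Esr1 read 655, 521, 576 and 502 in E and 918, 544, 711, 665 and 617 in E+P (0.28 ± 0.19, adjusted p = 0.684).

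Just short of the threshold lay the cholesterol enzyme Mvd (1.89 ± 0.38, 2 E animals at the floor, adjusted p = 0.0526), a second Nfib probe set (0.67 ± 0.14, adjusted p = 0.0526) and the metalloproteinase inhibitor Timp4 (-1.15 ± 0.24, adjusted p = 0.0537). The water channel Aqp5 differed by -1.11 ± 0.27 with groups that did not overlap (adjusted p = 0.138).

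Marker scores and RNA quality moved with the groups in part. The luminal score was 0.80 ± 0.17 (SD, n = 5) in E+P and 0.41 ± 0.26 (n = 4) in E (two-sided exact permutation p = 0.0317). The brown adipocyte score was 0.33 ± 0.46 and -0.80 ± 0.25 (exact p = 0.0159, the smallest this design allows). Over the 12 scores tested both had an adjusted p of 0.190. Ucp1 is 1 of the 5 genes in the brown adipocyte score, and Kit is in the luminal score. Both genes passed the threshold in this same comparison, so these scores are not independent of those results. Dio2, also in the brown adipocyte score, was bright enough to be tested through E+P animals alone. RNA quality was read from the Gapdh controls, as the log2 of 3′ over 5′ signal, which rises as RNA or its copies are shortened: it was 1.11 ± 0.31 in E+P and 0.58 ± 0.21 in E (exact p = 0.0476, adjusted 0.190). The lymphocyte score was -0.43 ± 1.07 and 0.98 ± 0.54 (exact p = 0.0952).

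**Figure D5:**
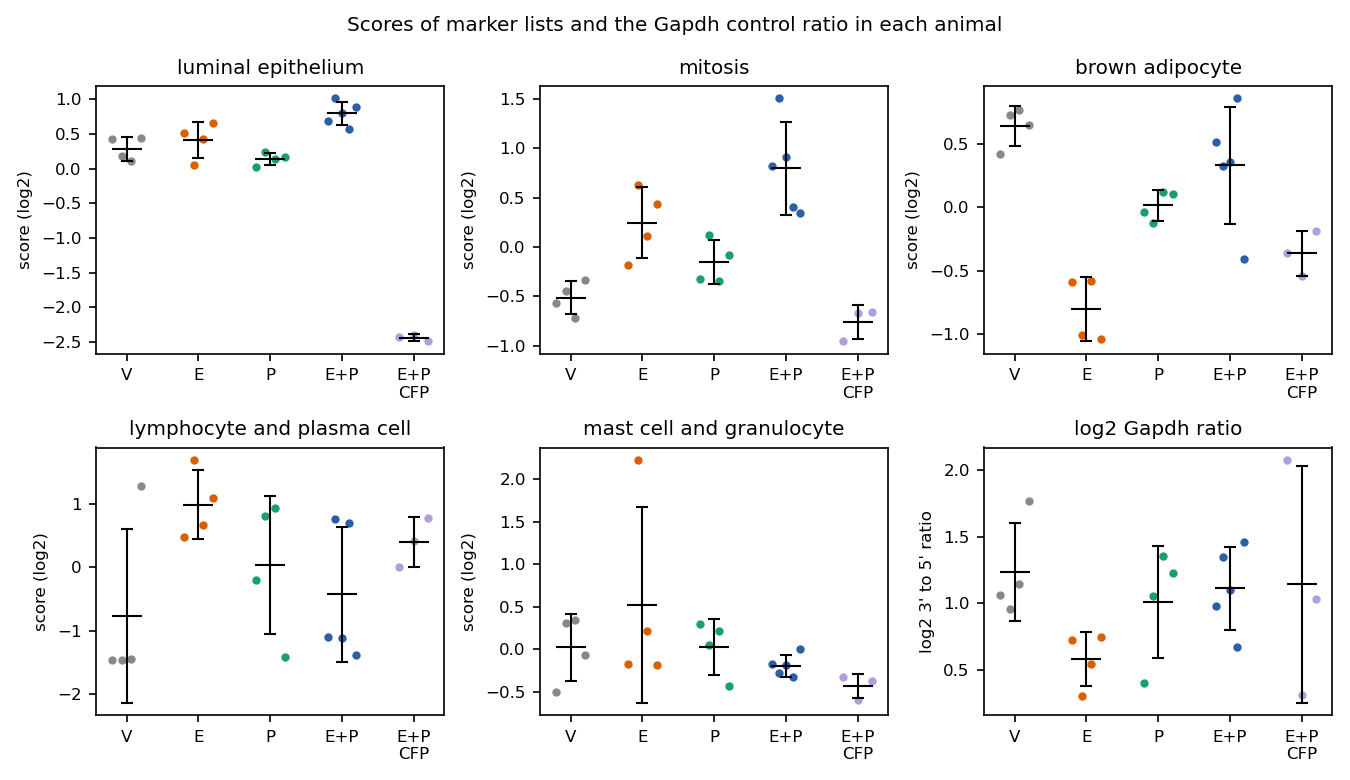
Score of 5 gene lists (mean log2 signal of the members relative to the 20 animals) and the log2 Gapdh 3′ to 5′ ratio in each animal of the 5 groups, with the group mean and SD. The E+P mean is above the E mean for the luminal and brown adipocyte lists and for the Gapdh ratio, with animals that overlap in the luminal score and the Gapdh ratio and do not in the brown adipocyte score, and 2 of the 5 E+P animals lie within the E range of the lymphocyte score.

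Entering a score as a covariate in limma left 13 probe sets past the threshold for the lymphocyte score, 10 for the Gapdh ratio and 0 for the luminal score. The sizes of the 33, as a median, were 1.00, 0.95 and 0.82 of those without a score. Under the luminal score Wfdc18 was 1.11 and Muc15 1.06, while Rbp7 was -1.60 and Ucp1 3.59. Of the 33, 7 kept an adjusted p below 0.05 whichever E or E+P animal was left out: Ucp1, Sprr2b, Dact2, Gab1, Lmo4, Rbp7 and Snrk. The count of 33 went to 11 without E+P 2, 13 without E 2, 18 without E 1 or E 3, 22 without E 4 and 20 without E+P 5.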

How the data were processed

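Total RNA (2 µg) from the glands was hybridised to 3 array types, per the labels' protocols. The deposited values are linear signal intensities that the authors made with MAS5, as the submitters' processing notes name it. Its settings and version are not given in the labels. Arrays of 1 group and replicate number were taken as 1 animal. Each array was scaled to a common 2% trimmed mean, floored at the 25th percentile of its type and turned to log2; probe sets above the 50th percentile in at least 3 of 20 animals were tested. limma 3.58.1 (R 4.3.3) fitted a mean for each of the 5 groups separately by array type and with a trend of variance on intensity, and Benjamini-Hochberg adjustment ran over all 23067 tested probe sets. Scores were compared by two-sided exact permutation tests in SciPy 1.17.1. The code was tested on simulated data.

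The text names the 15 largest rises and falls past the threshold, up to 4 members of each of the 35 lists with such a member, a fixed set of 22 genes (13 tested), the remaining probe sets past a threshold, and others chosen after their values were seen. Members, lists and tests were chosen with earlier results of these data known. A list gene is read by 1 probe set, from array type A before B before C. Of 36899 probe sets 198 were controls and left out; of the other 36701, 29131 carried 1 gene symbol, 724 more than 1 and 6846 none. The p-values measure the spread between animals; 4 and 5 animals limit the precision.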

Additional observations from a re-analysis of the deposited data

Results flagged for a closer look

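In some groups the gap between 1 animal and the others was large against the range of the group. Within E+P, E+P 2 was the lowest for Btnl9 (462) and the highest for Fat2 (554), and E+P 4 had the lowest basal score (-0.0147). Within E, E 4 was the highest for Gm15867 (75.8), and E 2 had the highest mast cell and granulocyte score (2.23). For Dact2, E 4 read 21.0 beside 3 E animals set to the floor of 19.8, so that gap reflects the floor and not a distant animal. These are 6 of 90 groups examined, where chance marks about 5%.

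The effect of progesterone differed with and without estrogen, by the interaction term in limma, for Zbtb16 (-3.66), Fam13a (-2.36) and 6430571L13Rik (-2.71), and for Ucp1 (4.28), Sprr2b (3.67) and Gm15867 (4.44), all on the log2 scale.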

How the results depend on the processing

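The 33 probe sets kept their direction under each of the 27 alternatives in which they were tested (2, Tph1 on array type A and Ido1, were not tested with the filter at the 70th percentile), and none stayed past the threshold under every one. Probe sets higher and lower in E+P than in E (17 and 16) numbered 40 and 33 with array weights, 5 and 5 in a fit of these 2 groups only, 10 and 6 with no filter, 4 and 9 with the lymphocyte score, 5 and 5 with the Gapdh ratio, and 0 and 0 with the luminal score. With a floor at the 10th or 40th percentile 11 and 28 were higher, and without the intensity trend 10 were lower. Leaving out 1 animal gave 5 to 22 higher and 2 to 15 lower. The interaction count of 17 became 28 with median scaling, 27 with an offset in place of the floor, 36 with array weights, 9 with the lymphocyte score, 4 with the Gapdh ratio, 1 with the luminal score, and 10 to 48 with 1 animal left out. P against V gave 1 with median scaling, 3 with a floor at the 40th percentile, 1 with no filter, and 0 to 4 with 1 animal left out. The fit without the fat pads, chosen after seeing the data, gave 15 and 15.

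With the replicate block the counts were 1 higher and 1 lower, 11 for the interaction and 2 for P against V; E+P 5 has no partner number and drops out of the block. Same-numbered E and E+P animals correlated at -0.03 to 0.07 over 4 pairs, and with no pair above 0.1 the numbers were not taken as pairs, although 3 of 4 E animals matched their own number best. Dim probe sets are limited by the floor.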
